A study of Mus musculus with 5 samples.

Results

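The 7 genes described here encode amino acid transporters of T cells, for leucine, glutamine and arginine among others: Slc7a5, Slc3a2, Slc7a6, Slc1a5, Slc38a1, Slc38a2 and Slc7a1. They were taken by name, as 7 of the 21938 protein-coding genes annotated on GRCm38, and every peak that lay in a gene or within 10 kb of it was described by its place, its width, its fold enrichment and its rank. The peaks come from ChIPseq of acetylated histones in TM cells, memory-type CD8 T cells made in vitro by activation and then culture with IL-15. By the methods the antibody recognises acetylated lysine in histones, and by the labels K18. There were 5 libraries, 2 of WT cells (WT replicates 1 and 2) and 3 of TPdh-/- cells (TPdh-/- replicates 1, 2 and 3), and the authors called a separate list of peaks for each library. The study describes more ChIPseq samples per genotype, and any others were not analysed here. TPdh-/- cells carry a floxed Pdha1 gene, which encodes the E1 alpha subunit of the pyruvate dehydrogenase complex, and a Cre recombinase under the Cd4 promoter. That promoter is active while thymocytes express both CD4 and CD8, so cells of the CD8 lineage recombine as well. By the methods, young adult mice of both sexes were used. The labels do not say whether libraries of a genotype came from separate mice or cultures, so each p-value measures only the spread between these libraries, which may be technical.

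Amino acids of this size do not cross the plasma membrane unaided, and activated T cells raise the transporters that carry them. Slc7a5 and Slc7a6 are the transporting chains of heterodimers whose common heavy chain, known as CD98, is encoded by Slc3a2. Slc7a5 exchanges large neutral amino acids such as leucine, Slc7a6 exchanges basic for neutral amino acids, Slc1a5 exchanges glutamine and other small neutral amino acids with sodium, Slc38a1 and Slc38a2 accumulate glutamine and alanine with sodium, and Slc7a1 admits arginine and lysine. Leucine and arginine inside the cell are sensed upstream of the kinase complex mTORC1, and a shortage of amino acids raises the transcription factor ATF4, whose target genes include several of these transporters. Acetylation of histone tails marks promoters and enhancers in use, and the acetyl group comes from acetyl-CoA, which the pyruvate dehydrogenase complex makes in mitochondria. A broad peak is a stretch over which the precipitated DNA exceeded the local background.

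The lists differed in length before any gene was looked up. WT replicates 1 and 2 held 15962 and 8859 peaks, and TPdh-/- replicates 1, 2 and 3 held 4920, 5419 and 9418. The files hold no numbers of reads, which leaves the depth behind a peak unknown, and a peak that was not called can still be present below the authors' threshold. For this reason each peak was also given a percentile, the share of the peaks of its own list that had a lower −log10 q (the authors' significance of a peak after correction), with 100 as the top. The percentile does not remove the effect of list length, since an equal rank is a higher percentile in a longer list. At the outermost start site of Slc3a2, ranks 2680 in WT replicate 1 and 2558 in TPdh-/- replicate 2 were the 83.2 and 52.8 percentile. In bulk chromatin, fewer cells with a mark and less of it per cell cannot be told apart. Pdha1, the deleted gene, had a promoter peak in WT replicate 1 alone, at the 18.4 percentile, which checks nothing of the deletion. The 9 T cell markers checked had promoter peaks in 9, 6, 3, 5 and 7 cases over the 5 libraries in the order above, with Ptprc (CD45) in all 5 and Cd8a at the 16.0 percentile in WT replicate 1 alone, while Cd8b1 was marked in all 5. The promoter of Cd4 had a peak in both WT libraries (19.9 and 55.0 percentile) and none in TPdh-/-, that of Zbtb7b a peak in WT replicate 1, and 1 of 5 B cell markers a peak in WT replicate 1 alone. No library had a promoter peak at the 4 myeloid, 2 NK or 3 non-blood markers. The part of other cells in the values below was not tested.

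Promoter sequences are shown first, since base composition and the letters of known response elements were not used to choose the genes. RefSeq promoters of GRCm38.p6, from 250 bases before a start site to 50 after it, were found for Slc7a1, Slc7a6, Slc38a2 and Slc3a2. That of Slc3a2 belongs to an internal start site at chr19:8713897, and not to the gene's outermost start site at chr19:8723369. Slc7a5, Slc1a5 and Slc38a1 are named only. Each is written 5′ to 3′ on the gene's own strand, with GC boxes (GGGCGG on either strand) in capitals, as the only match among the 3 motifs searched. The others were the E-box CACGTG and TGATGNAA, the core of the amino acid response element that ATF4 binds with C/EBP partners.
Slc7a1 promoter, chr5:148399855-148400154, minus strand: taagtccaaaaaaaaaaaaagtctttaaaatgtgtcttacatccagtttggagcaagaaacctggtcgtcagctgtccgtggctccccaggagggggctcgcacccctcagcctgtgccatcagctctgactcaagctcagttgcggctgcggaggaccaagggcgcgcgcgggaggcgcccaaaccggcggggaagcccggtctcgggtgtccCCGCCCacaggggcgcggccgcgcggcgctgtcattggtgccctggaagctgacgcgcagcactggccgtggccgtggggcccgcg
Slc7a6 promoter, chr8:106168604-106168903, plus strand: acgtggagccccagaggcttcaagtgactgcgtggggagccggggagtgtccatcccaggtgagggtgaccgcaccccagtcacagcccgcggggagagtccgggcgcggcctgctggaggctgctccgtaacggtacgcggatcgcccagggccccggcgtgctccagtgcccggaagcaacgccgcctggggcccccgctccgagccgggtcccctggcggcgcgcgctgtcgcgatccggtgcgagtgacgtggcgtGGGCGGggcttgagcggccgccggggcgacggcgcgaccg
Slc38a2 promoter, chr15:96699679-96699978, minus strand: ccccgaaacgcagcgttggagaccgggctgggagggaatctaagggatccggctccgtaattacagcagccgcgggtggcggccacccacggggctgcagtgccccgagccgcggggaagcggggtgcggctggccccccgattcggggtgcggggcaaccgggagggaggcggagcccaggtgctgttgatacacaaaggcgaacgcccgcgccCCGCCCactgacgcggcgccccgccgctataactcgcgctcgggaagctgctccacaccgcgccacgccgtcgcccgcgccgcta
Slc3a2 promoter, chr19:8713848-8714147, minus strand: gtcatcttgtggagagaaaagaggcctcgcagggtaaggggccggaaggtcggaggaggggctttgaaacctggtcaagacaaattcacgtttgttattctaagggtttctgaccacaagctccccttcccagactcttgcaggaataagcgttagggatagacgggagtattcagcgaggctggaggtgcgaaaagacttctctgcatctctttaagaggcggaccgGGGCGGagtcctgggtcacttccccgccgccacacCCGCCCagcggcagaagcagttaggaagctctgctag
The Slc7a6 and Slc38a2 promoters were rich in G and C, at 75.7% and 73%, which lay at the 96.7 and 94.3 percentile of the 32851 RefSeq promoters. That of Slc7a1 had 65% (81.7 percentile) and that of Slc3a2 56% (59.7 percentile), against a median of 52.7% over all promoters. Slc3a2 held 2 GC boxes and the others shown 1 each, and 35.7% of all promoters held at least 1. Slc7a6 and Slc7a1 each had a further RefSeq promoter that is not shown. That of Slc7a6, chr8:106168671-106168970, overlapped the one shown, with 76.7% G and C and 1 GC box. That of Slc7a1, chr5:148392766-148393065, had 51.7% G and C (45.4 percentile) and 0 GC boxes, and no library had a peak over it. No whole E-box and no response core lay in the 4 windows shown, where 7.15% and 3.97% of all promoters held one. The Slc7a6 window opens inside an E-box that begins at chr8:106168603, so its edge cut that match. Peaks covered the Slc7a6 promoter in full in the 4 libraries that had a peak there. They covered the Slc7a1 promoter shown over 300, 203, 80, 251 and 300 of its bases in the 5 libraries in order. The internal Slc3a2 window was covered over 51 bases in TPdh-/- replicate 3 and over 0 in the other 4 libraries. The peak at that start site lay on its transcribed side. The outermost start site of Slc3a2, for which no promoter is shown, lay in a peak in all 5 libraries.

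The response core was found further inside the peaks. The stretch shared by the libraries was searched for the regions of Slc3a2, Slc7a6, Slc38a2 and Slc7a1 and for the intragenic region of Slc38a1 described below. In each 30-base stretch the match is in capitals and the sequence is written on the gene's strand, and they are shown because they are the matches at a start site with a peak in all 5 libraries.
Slc38a2 intron, 546 bases after the start: gcccctcggtaTTGCATCAgttcctcccgg
Slc7a1 exon, 66 bases after the start: cggcgcgcggcTGATGAAAccggctcggat
Slc7a1 intron, 397 bases after the start: ggcgtggtgcaTGATGCAAcagcgggaggg
The Slc38a2 match reads TTGCATCA on the gene's strand, which is TGATGCAA on the other. Of all merged regions read over their central 1066 bases, as long as the part of the Slc38a2 promoter peak that all 5 libraries share, 13.0% held the core, and over 633 bases, the length for Slc7a1, 7.77% did. An E-box lay 472 bases after the start of Slc7a1 and another at position -254 of Slc7a6. Of all merged regions, 10.6% held an E-box over 633 bases and 13.5% over 820 bases, the shared lengths of these peaks. The searched stretches of Slc3a2 and Slc38a1 held neither motif. A weaker inner region of Slc7a1, described below, held a further response core, as did 7.1% of all regions over 577 bases. These are matches of letters and were not tested as binding sites.

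Over the 7 genes and their flanks the lists held 50 peaks, which merged into 13 regions, 9 at a start site (within 3000 bp) and 4 away from one. By library the counts were 13 and 10 peaks in WT and 7, 9 and 11 in TPdh-/-. Of the 13 regions, 7 had a peak in all 5 libraries, which is 53.8%, against 16.8% of the 18410 merged regions of the whole genome. Those of the whole genome were not limited to start sites or to genes of T cells, so the sets are unlike in place. A single region, upstream of Slc7a5, had a peak in both WT libraries and in no TPdh-/- library, or 7.69%, against 5.92% of all regions. None had a peak in TPdh-/- cells without one in WT. The regions with a peak in WT replicate 1 but not in WT replicate 2 numbered 3, more than the region that set the genotypes apart.

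**Figure D1:**
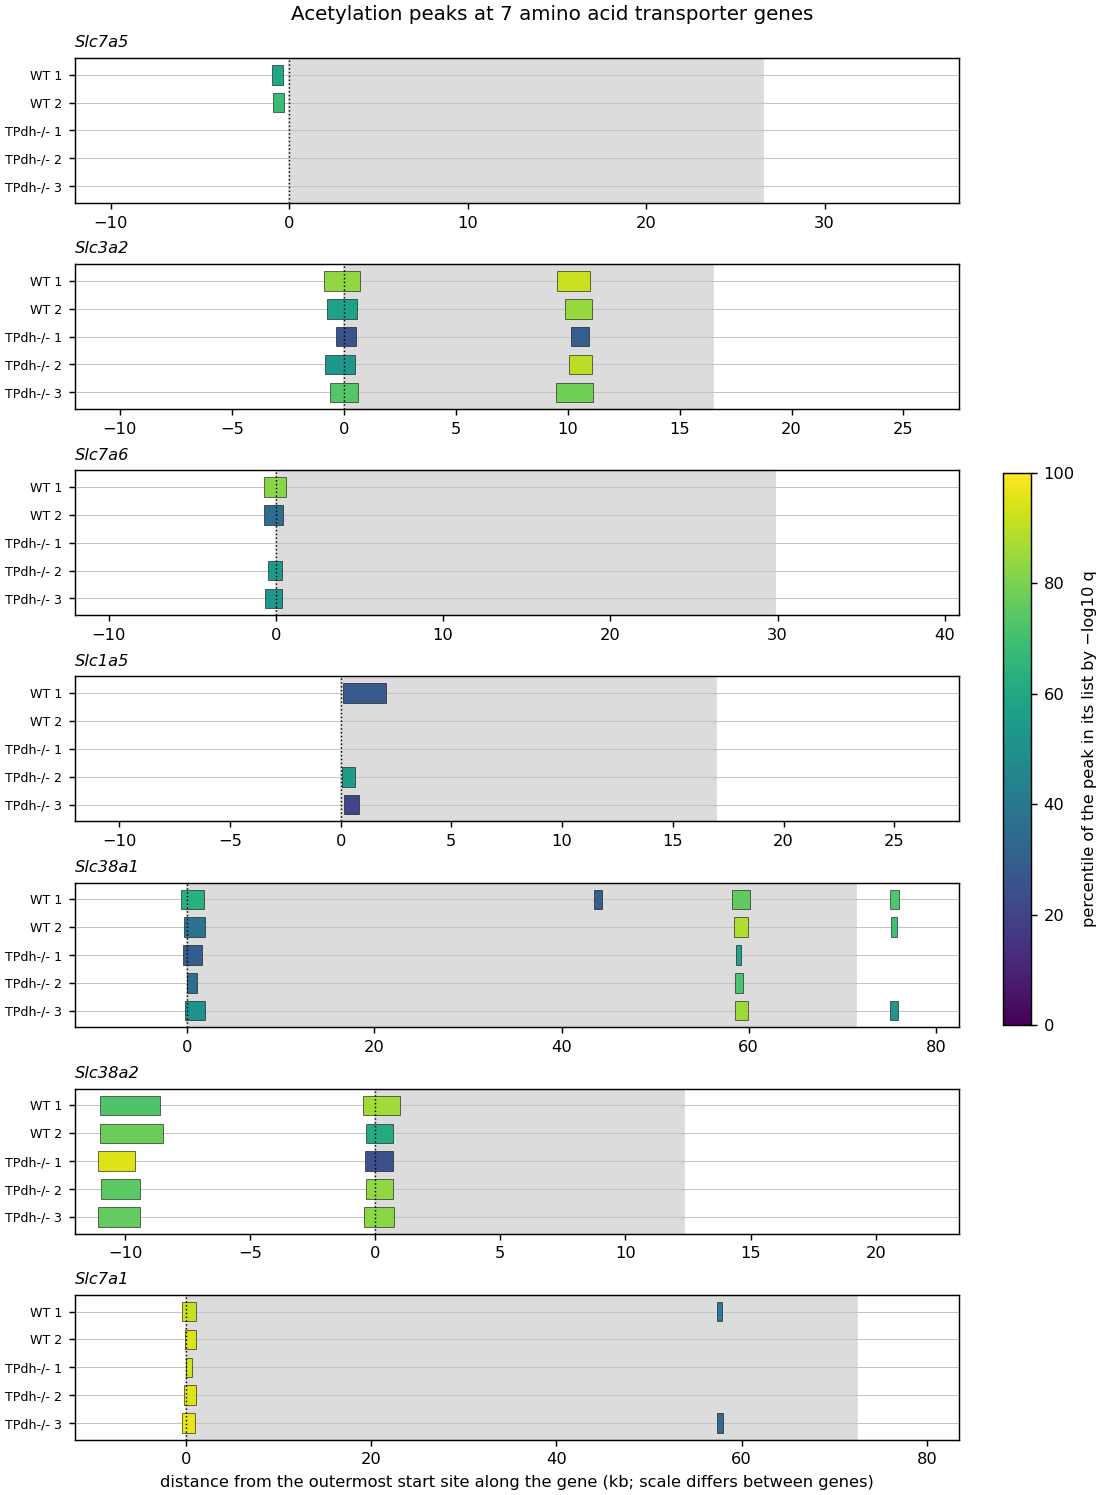
Each panel shows 1 gene, with the distance from its outermost start site in kb on the horizontal axis, the 5 libraries on the vertical axis and the gene body shaded grey. Each bar is 1 called peak, drawn to scale and coloured by its percentile within its own list, and Slc7a5 has bars in the 2 WT rows alone while Slc7a1 has a bright bar at its start in all 5 rows.

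Slc7a5, the leucine exchanger (chr8:121881150-121907694, minus strand), had peaks in fewer libraries than any of the other 6 genes. WT replicate 1 had a peak of 637 bp, from chr8:121908036 to 121908672, with a 2.69-fold enrichment, a −log10 q of 4.80 and rank 6504. In WT replicate 2 the peak was 597 bp wide, with a 3.22-fold enrichment, a −log10 q of 4.31 and rank 2870. Neither reached the gene, since they ended at positions -342 and -297 from its start site. They lay inside the divergent noncoding gene BC048644, which starts 139 bp from Slc7a5 and runs the other way, and inside the long gene model Gm20388, so the mark cannot be assigned to a single gene. No TPdh-/- library had a peak within 10 kb of Slc7a5. The peaks were at the 59.3 and 67.6 percentile by −log10 q, and narrow, at the 10.5 and 7.64 percentile by width. The covered length was 617 ± 28.3 bp (SD, n = 2) for WT against 0 in all 3 TPdh-/- libraries, a difference of 617 bp with no overlap (exact permutation test, two-sided, p = 0.2, adjusted p = 0.769). With 10 ways to split 5 libraries into 2 and 3, 0.2 is the smallest two-sided p that this test can give, so that no comparison of the genotypes could reach 0.05. With a −log10 q of at least 5, or a width of at least 1000 bp, no library had a peak here. With each list held to its 4920 strongest peaks, the length of the shortest, the peak of WT replicate 1 dropped out, and the difference of 298.5 bp came from WT replicate 2 alone. This pattern at a promoter, a call in each WT and in no TPdh-/- library, occurred at 2.21% of all protein-coding genes.

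Slc3a2, the heavy chain that carries Slc7a5 and Slc7a6 to the surface (chr19:8706882-8723369, minus strand), was marked at its outermost and its internal start sites in every library. At the outermost start site, whose peaks also covered the start of the divergent noncoding gene Snhg1 at a distance of 106 bp, the widths were 1632 and 1330 bp in WT against 907, 1362 and 1258 bp in TPdh-/-. The fold enrichments there were 3.15 and 2.92 in WT and 2.74, 2.92 and 3.10 in TPdh-/-, and the percentiles 83.2 and 57.0 against 25.5, 52.8 and 73.1. The values of the genotypes overlapped in width, fold and percentile, with TPdh-/- replicate 1 the lowest in each. Within the gene, 9471 to 11121 bp after that start site, another region lay over the internal start sites from which the shorter transcripts run. Its widths were 1447 and 1186 bp in WT against 797, 1026 and 1651 bp in TPdh-/-, and its percentiles 92.1, 84.0, 29.5, 89.7 and 78.5 in the same order. It ranked above the outer promoter in all 5 libraries. In WT replicate 1, 585 bp of this peak lay in coding sequence and 706 bp in introns of the coding transcripts, while the outer peak held 112 bp of coding sequence and 274 bp of 5′ untranslated exon in each library. Covered length was 2798 ± 398 bp (SD, n = 2) for WT against 2334 ± 604 bp (SD, n = 3) for TPdh-/-, a difference of 464 bp (exact permutation test, two-sided, p = 0.4, adjusted p = 0.827). It was 149 bp without TPdh-/- replicate 1, 182 bp without WT replicate 1, 745 bp without WT replicate 2 and 751.5 bp without TPdh-/- replicate 3.

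Slc7a6, the other light chain of CD98 (chr8:106168857-106198706, plus strand), had a single region, at its start site. The peak measured 1321 and 1120 bp in WT against 820 and 1016 bp in TPdh-/- replicates 2 and 3, and TPdh-/- replicate 1 had none. Its folds were 3.23, 2.75, 2.86 and 2.78 and its percentiles 82.4, 35.0, 54.0 and 52.9 in that order, so that in percentile the WT libraries lay on either side of both TPdh-/- libraries. All 4 peaks covered 5 annotated start sites and 130 bp of untranslated exon. In covered length both WT libraries lay above all 3 of TPdh-/-, at 1220.5 ± 142 bp (SD, n = 2) against 612 ± 539 bp (SD, n = 3), a difference of 608.5 bp (exact permutation test, two-sided, p = 0.2, adjusted p = 0.769). With lists of equal length WT replicate 2 lost its peak, the groups overlapped and the difference was 48.5 bp, and without TPdh-/- replicate 1 it was 302.5 bp. In percentile, with 0 for a list without a peak, the groups overlapped (difference 23.1, exact permutation test, two-sided, p = 0.6, adjusted p = 0.910).

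Slc1a5, the glutamine exchanger (chr7:16781340-16798274, plus strand), was called in 3 libraries, and not in the same pattern as the others. WT replicate 1 had a wide, shallow peak of 1941 bp with a 2.2-fold enrichment at the 27.7 percentile. TPdh-/- replicate 2 had a peak of 581 bp with a 2.96-fold enrichment at the 54.4 percentile, and TPdh-/- replicate 3 one of 662 bp with a 2.36-fold enrichment at the 20.3 percentile. WT replicate 2 and TPdh-/- replicate 1 had none, so that each genotype had a library without a peak. The peaks began 103, 45 and 160 bp after the outermost start site. Both TPdh-/- peaks lay wholly in exons of coding transcripts, with 65 and 261 bp of coding sequence, while 908 bp of the WT peak were intronic. Covered length was 970.5 ± 1372 bp (SD, n = 2) for WT against 414 ± 361 bp (SD, n = 3) for TPdh-/-, with an SD in WT larger than the difference of 556 bp (exact permutation test, two-sided, p = 0.8, adjusted p = 0.870).

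Slc38a1, a sodium-coupled glutamine transporter (chr15:96571418-96642913, minus strand), had more regions than any other member, with 4. The promoter region had a peak in all 5 libraries that was wide and low. Its widths were 2495 and 2173 bp in WT against 2038, 1110 and 2133 bp in TPdh-/-, and its folds lay between 1.93 and 2.07. By width these peaks were at the 68.7 to 96.5 percentile of their lists, and by fold at the 4.84 to 11 percentile. The reason for the low folds of these wide peaks was not tested. By −log10 q they were at the 63.5 and 38.1 percentile in WT and the 28.7, 35.2 and 50.5 percentile in TPdh-/-. Each covered 6 annotated start sites, and between 656 and 1455 bp of untranslated exon, with no coding sequence.

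The plot of width against fold sets this promoter beside those of the other members.

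**Figure D2:**
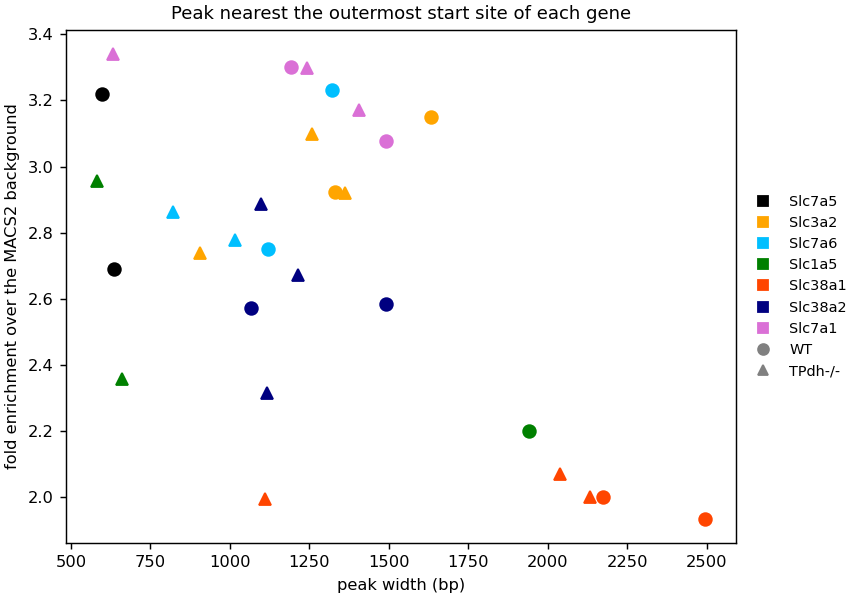
Each point is the peak nearest the outermost start site of a gene in 1 library, with its width in bp on the horizontal axis and its fold enrichment on the vertical axis, coloured by gene, with circles for WT and triangles for TPdh-/-. The 5 Slc38a1 peaks lie at a fold of 1.93 to 2.07, below every other point, and the 5 Slc7a1 peaks at 3.08 to 3.34.

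Inside Slc38a1, from 58265 to 60145 bp after the start, another region had a peak in all 5 libraries. It was 1881 and 1529 bp wide in WT and 607, 800 and 1315 bp in TPdh-/-, with folds of 2.72 and 3.15 against 3.09, 3.16 and 3.24. Both WT peaks were wider than the 3 of TPdh-/-, and the folds overlapped. How many of all merged regions had widths apart in this way was not counted. Its percentiles of 75.6, 88.2, 58.5, 71.4 and 85.5 were above those of the gene's own promoter in every library. Most of each peak was intronic, with 101 bp of coding sequence in both WT libraries, 9 and 5 bp in TPdh-/- replicates 2 and 3, and 0 in replicate 1. The centre of the stretch shared by all 5 is shown because, unlike the promoters, it was poor in G and C, at 40.3% (18.8 percentile of the centres of all merged regions, whose median was 50.3%). None of the 3 motifs lay in it.
Slc38a1 intron, chr15:96583867-96584166, minus strand: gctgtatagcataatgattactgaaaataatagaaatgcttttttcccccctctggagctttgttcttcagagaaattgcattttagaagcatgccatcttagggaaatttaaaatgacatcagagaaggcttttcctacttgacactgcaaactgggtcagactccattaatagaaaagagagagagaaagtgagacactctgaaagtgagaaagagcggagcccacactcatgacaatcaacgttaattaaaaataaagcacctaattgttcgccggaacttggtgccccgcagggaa
A further region, in an intron 43472 to 44339 bp after the start, had a peak of 868 bp in WT replicate 1 alone, at the 29.0 percentile. The last lay beyond the end of the gene, 75104 to 76093 bp after the start, in WT replicates 1 and 2 (990 and 676 bp, 72.4 and 69.9 percentile) and in TPdh-/- replicate 3 (865 bp, 52.0 percentile).

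Over the gene and its flanks the covered length of Slc38a1 was 6234 and 4378 bp in WT against 2645, 1910 and 4313 bp in TPdh-/-. The lower WT value was barely above the highest of TPdh-/-, by far less than the spread within either group. The means were 5306 ± 1312 bp (SD, n = 2) and 2956 ± 1231 bp (SD, n = 3), a difference of 2350 bp (exact permutation test, two-sided, p = 0.2, adjusted p = 0.769). With lists of the same length, the 4920 strongest peaks of each, the difference changed sign, to -418 bp, and neither WT list then held the promoter peak. Without WT replicate 1 it was 1422 bp.

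Slc38a2, a close relative of Slc38a1 and its neighbour on chromosome 15 (chr15:96687392-96699730, minus strand), had 2 regions, both with a peak in all 5 libraries. At the promoter the widths were 1491 and 1066 bp in WT against 1118, 1097 and 1213 bp in TPdh-/-. The folds were 2.58 and 2.57 in WT and 2.32, 2.89 and 2.67 in TPdh-/-, and the percentiles 86.1 and 61.3 against 24.6, 83.5 and 82.7. The genotypes overlapped in all 3 measures. TPdh-/- replicate 1 was again the lowest in fold and percentile, with a −log10 q of 1.79. The peaks covered 323 bp of untranslated exon in 4 libraries and 410 bp in WT replicate 1, and the response core of the intron shown above.

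Upstream of Slc38a2, between positions -11081 and -8480 from its start site, the widths of the genotypes did not overlap. WT peaks measured 2427 and 2523 bp, and TPdh-/- peaks 1464, 1567 and 1645 bp. The folds ran the other way, at 2.11 and 2.32 in WT and 2.95, 2.44 and 2.35 in TPdh-/-, with no overlap. The share of all merged regions with widths or folds apart in this way was not counted, so these separations have no background beside them. In percentile the values were 72.0 and 77.7 in WT and 94.9, 74.8 and 76.1 in TPdh-/-, which overlapped. TPdh-/- replicate 1, whose promoter peak at this gene was at the 24.6 percentile of its list, had the upstream peak at rank 251 of 4920. The annotated start site nearest to the shared stretch was that of Gm38144, a provisional gene model 443 bp from the start of Slc38a2, at 9175 bp. The centre of the shared stretch is shown because it held 2 E-boxes, in capitals, where 5.38% of the centres of all merged regions held at least 1. It had 69.7% G and C (90.2 percentile of those centres) with 30 CpG sites. Over 1350 bases, the length of the whole shared stretch, 20.2% of all merged regions held an E-box.
Slc38a2 upstream region, chr15:96709873-96710172, minus strand: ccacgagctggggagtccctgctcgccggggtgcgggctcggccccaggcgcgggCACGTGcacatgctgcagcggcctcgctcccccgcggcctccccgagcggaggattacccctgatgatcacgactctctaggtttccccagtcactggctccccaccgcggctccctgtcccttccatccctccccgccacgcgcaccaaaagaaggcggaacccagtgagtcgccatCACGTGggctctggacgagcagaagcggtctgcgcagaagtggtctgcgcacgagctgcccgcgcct
Clipped to the 10 kb flank, the covered length of Slc38a2 was 2901 and 2587 bp in WT against 1501, 1697 and 1794 bp in TPdh-/-. The means were 2744 ± 222 bp (SD, n = 2) and 1664 ± 149 bp (SD, n = 3), and the difference of 1080 bp was larger than the spread within either group (exact permutation test, two-sided, p = 0.2, adjusted p = 0.769). It rested on the upstream region. With flanks of 3 kb, which leave that region out, the genotypes overlapped with a difference of 136 bp, and in the gene body alone they overlapped with one of 121 bp.

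Slc7a1, the arginine transporter (chr5:148327410-148399904, minus strand), had the promoter peak whose percentile varied least between libraries. The widths were 1490 and 1194 bp in WT against 633, 1242 and 1407 bp in TPdh-/-, and the folds 3.08 and 3.30 against 3.34, 3.30 and 3.17. Its −log10 q was 10.6 and 8.62 in WT and 6.06, 7.56 and 10.9 in TPdh-/-. It held ranks 1335 and 489 for WT and 335, 278 and 335 for TPdh-/-, between the 91.6 and 96.4 percentile. TPdh-/- replicate 1, in which the promoters of Slc3a2, Slc38a1 and Slc38a2 were all below the 30 percentile, had this one at 93.2. The difference in percentile was -1.78 (93.1 ± 2.01, SD, n = 2, for WT against 94.8 ± 1.62, SD, n = 3, for TPdh-/-, exact permutation test, two-sided, p = 0.4, adjusted p = 0.910). Each peak covered 2 start sites and 176 bp of untranslated exon, and the rest within the gene was intron.

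A weaker region lay in Slc7a1, from 57324 to 58026 bp after its start, with peaks of 577 bp in WT replicate 1 and 703 bp in TPdh-/- replicate 3, at the 41.5 and 34.2 percentile. It held 158 and 223 bp of coding sequence, and the stretch shared by both peaks lay 155 bp from an annotated start site of the gene. Covered length over the gene was 2067 and 1194 bp in WT against 633, 1242 and 2110 bp in TPdh-/-, with a difference of 302 bp and full overlap (exact permutation test, two-sided, p = 1, adjusted p = 1).

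**Figure D3:**
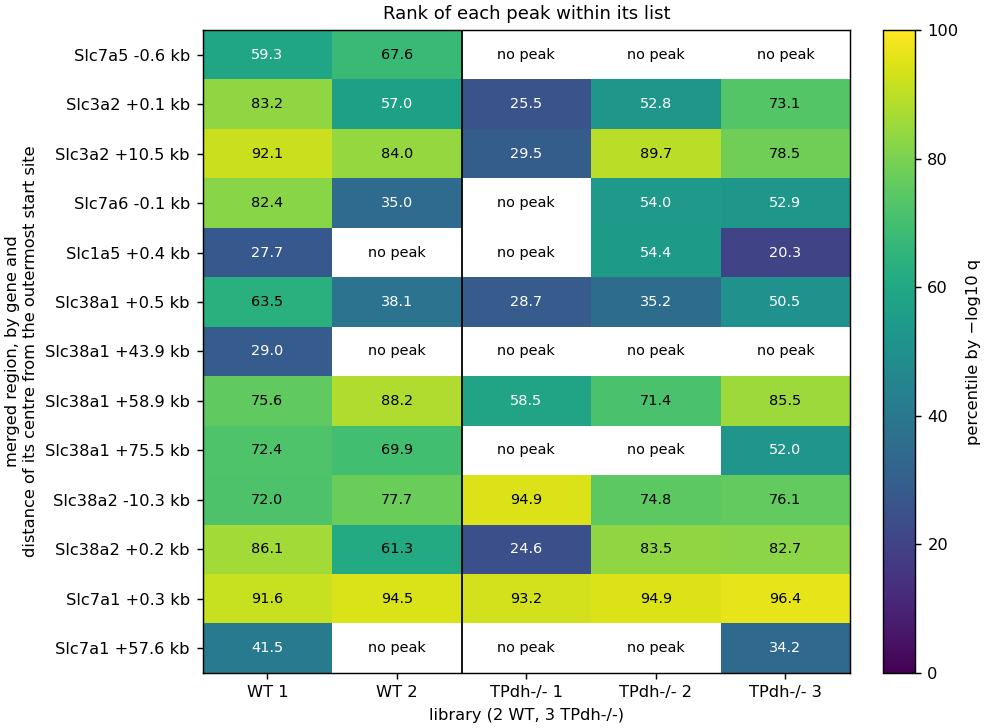
Rows are the 13 merged regions, named by gene and by the distance of their centre from the outermost start site, and columns are the 5 libraries, with the percentile of the peak within its list printed and coloured. TPdh-/- replicate 1 is below the 30 percentile at 4 of its 7 peaks and at 93.2 and 94.9 at the Slc7a1 promoter and the Slc38a2 upstream region.

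Taken by library, 7 and 6 of the 7 genes had a promoter peak in WT and 4, 6 and 6 in TPdh-/-. Over all protein-coding genes, expressed in T cells or not, the shares were 42.1% and 24.8% in WT and 15.3%, 16.5% and 27.9% in TPdh-/-. Slc3a2, Slc38a1, Slc38a2 and Slc7a1 had one in all 5 libraries, that is 4 of 7 against 10.9% of all protein-coding genes. The median percentile over the 7 genes, with 0 for a gene without a promoter peak, was 82.4 and 61.3 in WT and 24.6, 54.4 and 52.9 in TPdh-/-. Over the called promoter peaks alone it was 82.4 and 64.5 in WT and 29.1, 69.0 and 65.7 in TPdh-/-, and the genotypes overlapped. When each list was cut to the 4920 strongest peaks, the length of the shortest, the count was 4 in both WT libraries and 4, 6 and 5 in TPdh-/-, where 19.9% and 17.1% of all protein-coding genes had a promoter peak in WT, 15.3% still in TPdh-/- replicate 1, and 15.8% and 18.7% in TPdh-/- replicates 2 and 3. The direction of the difference between genotypes thus changed with the length of the lists, from 1.17 genes more in WT to 1 gene fewer.

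**Figure D4:**
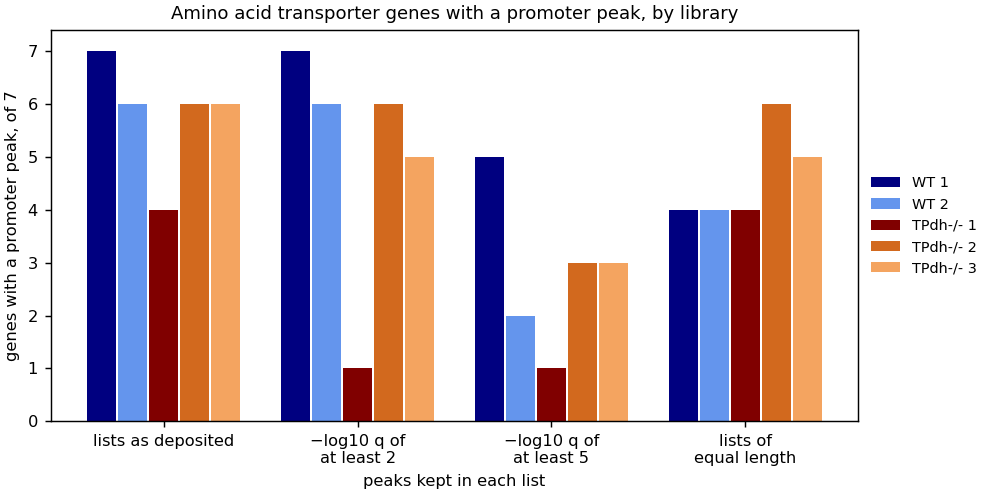
Bars give the number of the 7 genes with a promoter peak in each of the 5 libraries, for the lists as deposited, for a −log10 q minimum of 2 or 5, and for lists of equal length. TPdh-/- replicate 1 falls from 4 genes to 1 at a −log10 q of at least 2, and both WT libraries fall to 4 with lists of equal length. The median −log10 q of the TPdh-/- replicate 1 list was 2.59, the lowest of the 5. The shares of all protein-coding genes at a minimum of 2 or 5 were not counted.

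In covered length, summed over the 7 genes, the libraries had 18180 and 12392 bp in WT against 6483, 8638 and 12804 bp in TPdh-/-, and TPdh-/- replicate 3 lay above WT replicate 2. Per 10 kb of DNA covered by the whole list, WT replicate 1 was the lowest and the genotypes overlapped, with 9.0 and 12.5 bp in WT against 13.4, 15.6 and 11.8 bp in TPdh-/-. Both WT libraries were above all 3 TPdh-/- libraries at 4 of the 7 genes, Slc7a5, Slc7a6, Slc38a1 and Slc38a2, against 26.0% of the 12312 genes with a peak in any library, and below them at 0, against 0.0569%. With lists of equal length Slc38a2 was the 1 gene of these 4 still apart. The share of all genes still apart at that setting was not counted. In the percentile of the promoter peak both WT libraries were above at 1 gene, Slc7a5, against 21.2% of 9493 genes, and below at 0, against 0.369%. Tests over all these genes gave 0 with an unadjusted p under 0.05 in either measure, since the smallest p is 0.2.

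**Figure D5:**
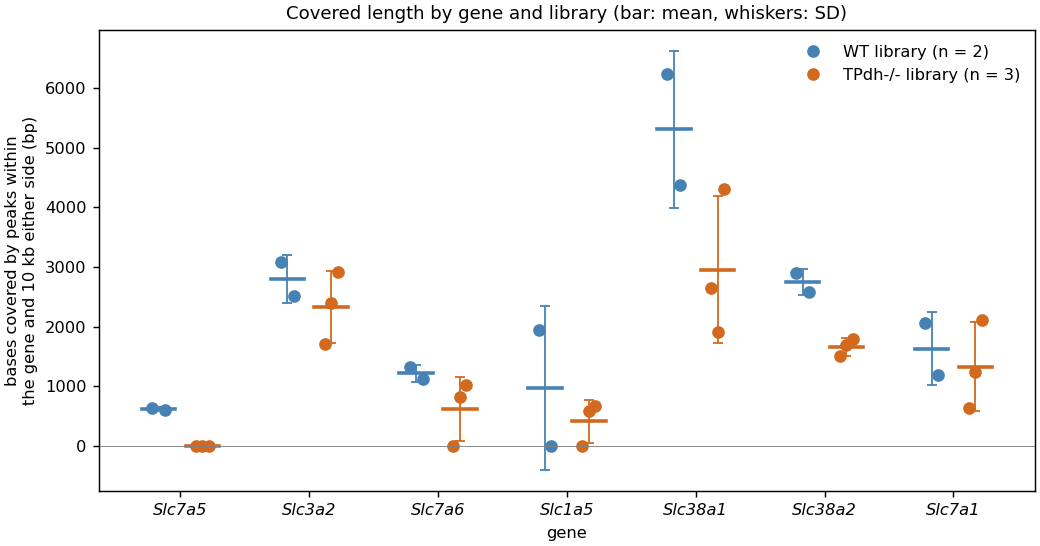
The bases covered by peaks within each gene and 10 kb either side are shown for each library (points), with the mean (bar) and SD (whiskers) of WT in blue and TPdh-/- in orange. The groups are apart at Slc7a5, Slc7a6, Slc38a1 and Slc38a2 and overlap at Slc3a2, Slc1a5 and Slc7a1.

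Genes around these transporters were tallied from lists chosen by function. Over all protein-coding genes, the shares with a promoter peak were 42.1% and 24.8% in WT and 15.3%, 16.5% and 27.9% in TPdh-/-. Of 30 other amino acid transporter genes, 10 and 5 had a promoter peak in WT and 2, 3 and 7 in TPdh-/-, and 20 had none in any library. Those with one in all 5 were Slc6a19 and Slc43a2, while Slc38a9, the lysosomal arginine transporter, had one in WT replicate 1 alone, at the 69.2 percentile. Covered length was above in both WT libraries at 3 of the 17 with a peak, against 26.0% of all genes with a peak.

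Among 33 genes of amino acid sensing and the mTORC1 pathway, 27 and 14 were marked in WT and 7, 11 and 14 in TPdh-/-. All 5 libraries had a promoter peak at Rraga and Rheb, which encode GTPases of that pathway, at Lamtor1 and Lamtor4, subunits of the lysosomal scaffold, and at Flcn. Covered length was above in both WT libraries at 8 of 30, against 26.0% of all genes with a peak.

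Of 20 amino acid response genes, 15 and 7 had a promoter peak in WT and 5, 6 and 11 in TPdh-/-. In covered length both WT libraries were above at 6 of 17, against 26.0% of all genes with a peak. Atf4, which encodes the factor that drives the response, was marked strongly throughout, at the 93.1 and 91.7 percentile in WT and 87.5, 98.6 and 99.0 in TPdh-/-. Asns, the asparagine synthetase gene and a target of ATF4, had no peak in any library. Ddit3, Psph and Mthfd2 were the other genes with a promoter peak in all 5.

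For 14 genes of glutamine and glutamate metabolism the counts were 11 and 5 in WT and 1, 3 and 7 in TPdh-/-. Aldh18a1, which makes the precursor of proline, had a promoter peak in both WT libraries (55.4 and 2.49 percentile) and in none of TPdh-/-, and Got1 had one in all 5. Covered length was above in both WT libraries at 4 of 13, against 26.0% of all genes with a peak. In none of the 4 lists did a gene have a promoter peak in TPdh-/- cells without one in WT.

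Over all protein-coding genes, the promoters whose 5 percentiles lay nearest to the mean profile of the 7 transporters, with 0 for a gene without a peak (71.8 and 54.4 in WT, 25.1, 58.8 and 54.5 in TPdh-/-) were those of Rreb1, H2afy and Ablim1, at Euclidean distances of 11.2, 12.5 and 12.7 percentile points over the 5 libraries. Rreb1 had 68.4 and 53.2 in WT and 18.1, 65.8 and 58.2 in TPdh-/-.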

How the data were processed

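ChIPseq peak lists of TM cells were analysed for 2 WT and 3 TPdh-/- libraries. The authors aligned reads to GRCm38/mm10 with BWA-mem 0.7.17, kept uniquely mapping reads with Samtools 1.15.1, dropped blacklisted regions and, for each library, called broad peaks by MACS2 2.2.6, and an input control is not given in the sources used here. The deposited fold enrichment is a linear ratio over the background that MACS2 estimated, and the deposited significance is −log10 p and −log10 q. No read numbers are held, so precision from depth cannot be given. DiffBind needs reads and was not run, and the other assays of the study were not used here.

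Peaks were matched to genes in Python 3.11.15 (scipy 1.17.1, numpy 2.4.6, pandas 2.3.3) by an overlap of at least 1 bp with the gene and 10 kb either side (GENCODE M21). A promoter peak lay within 3000 bp of a start site of the gene, the strongest by −log10 q was used, and tied peaks shared a rank. Covered length is the number of bases under peaks in that window. The test of the genotypes was the exact permutation test, with 10 arrangements, two-sided (double the smaller one-sided p), and Benjamini-Hochberg adjustment over all protein-coding genes with a peak. The scripts were tested on simulated data. All RefSeq promoters matched the genome at their coordinates. Motifs were read on both strands.

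The 7 genes and the other lists were chosen with earlier results of these data known. Named besides the 7 are genes of the other lists with a promoter peak in one genotype alone (both WT and no TPdh-/- library, or the reverse), Slc38a9, Atf4, Asns and a gene that is not reported here, the 3 genes of the nearest profile, and neighbours whose start a peak covers. Genes with a promoter peak in all 5 libraries, markers and gene models beside a region were named after their values were seen. The alternatives were a minimum −log10 q (2 or 5), lists of equal length, a width of at least 1000 bp, peak midpoints, flanks of 3 kb or none, promoters within 1000 bp, the outermost start site, the replicate number as a block, and each library left out.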

Additional observations from a re-analysis of the deposited data

How the results depend on the processing

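Over the 7 genes, WT minus TPdh-/- was 1.17 for genes with a promoter peak, 5978 bp for summed covered length and 27.9 for the median percentile of the promoter peak, with 0 for a gene without one, and 4 genes had both WT libraries above. Lists of equal length turned the first to -1, took the second to 1527 bp and left 1 gene with WT above, as the construction takes peaks from the longer lists. At a minimum −log10 q of 2 the first was 2.5, and at 5 the number of genes with WT above was 1. In the gene body alone that number was 2. The cause of these changes was not tested. The shares of all genes with WT above under these settings, or with a promoter peak at these minima, were not counted. Over called promoter peaks alone, an alternative chosen after seeing the data, the percentile difference was 18.8 and the genotypes overlapped. Both percentile differences also depend on the unequal lengths of the lists.

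Leaving out a library gave 0.5 to 1.67 genes, 3084 to 8872 bp, a percentile difference of 17.3 to 38.4, and 4 to 6 genes with WT above. That last count could only stay or rise, since fewer libraries then have to be apart, so it does not test the separation. The share of all genes with WT above was not counted for these fits. The lowest gene count was without TPdh-/- replicate 1, which moved the percentile difference to 18.2. WT replicate 1 gave the lowest covered length and percentile when left out, and 0.667 genes. Its absence also turned the covered length of Slc1a5 (-414 bp) and Slc7a1 (-134 bp) and the percentiles of Slc7a6 (-0.605), Slc38a1 (-0.0461) and Slc38a2 (-2.29). The covered length of Slc7a1 also turned without TPdh-/- replicate 1 (-45.5 bp), as did the percentile of Slc38a2 (-9.41), and that of Slc1a5 turned without WT replicate 2 (2.75) or TPdh-/- replicate 2 (3.66). Over these fits the ranges were 149 to 751.5 bp for Slc3a2, 302.5 to 810.5 bp for Slc7a6, -414 to 1527 bp for Slc1a5 and -134 to 739 bp for Slc7a1 in covered length, and -0.605 to 46.7 for Slc7a6, -24.9 to 3.66 for Slc1a5, -0.0461 to 25.4 for Slc38a1 and -9.41 to 22.5 for Slc38a2 in percentile.

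Among single genes, lists of equal length turned the covered length of Slc1a5 (-194 bp) and Slc38a1 (-418 bp) and the percentile of Slc38a1 (-38.1). Under each cut of the lists a kept peak retained its percentile in the full list, and a gene left without a peak counted as 0. The percentile of Slc38a2 turned at a −log10 q of at least 5 (-12.4), and those of Slc1a5 (13.8) and Slc7a1 (29.3) at a width of at least 1000 bp. Of the alternatives for single genes, 82 kept the direction in covered length, 4 gave 0 and 5 turned it, and 78, 3 and 10 did so in percentile.

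The numbers 1 and 2 are not stated to pair libraries, and deviations from the group means had a correlation of -0.269 for number 1 and 0.282 for number 2 over 12312 genes. As a replicate block, with TPdh-/- replicate 3 unused, the differences were 1.5 genes, 7725.5 bp and 32.3, with 5 genes above in WT, and no direction changed. With a library unused, the count of genes above could only stay or rise. The smallest two-sided p was 0.2 throughout, and the depth behind the lists is unknown.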
